A study of Mus musculus with 3 samples.

Results

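The Wnt genes described here are 51 genes of the Wnt signalling pathway, read by 81 probes of a mouse expression array that held 56598 gene probes for 24811 named genes. The rule that picks them goes by symbol and uses no measured value: all genes named Wnt, Fzd or Sfrp with a number and Dkk1 to Dkk4, together with Lef1, Tcf7, Tcf7l1, Tcf7l2, Axin1, Axin2, Ctnnb1, Lrp5, Lrp6, Rnf43, Znrf3, Nkd1, Notum and Wif1. The members were nonetheless chosen with earlier results of these data known. By role they are 19 ligands, 12 receptors, 10 secreted antagonists, 5 inhibitors at the membrane or inside the cell, and 5 effectors. The cells were CLDE, a dental epithelial line that came from the mouse cervical loop, where the continuously growing incisor keeps its epithelial progenitors. They were studied 72 h after transfection with siRNA against Krt15 (siKrt15), after transfection with a non-targeting control siRNA (siNeg), or after a mock transfection whose content is not given in the sources used here. All 3 groups were the same line in a serum-free keratinocyte medium, without the mesenchyme that adjoins this epithelium in the tooth. Each group was a single array, so no difference below has a replicate check, a test or a p-value.

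Wnt proteins are secreted ligands that bind a Frizzled receptor together with the co-receptor Lrp5 or Lrp6. Without ligand, a destruction complex built on Axin and Apc marks beta-catenin for degradation, and with ligand beta-catenin accumulates and joins DNA-binding proteins of the Tcf and Lef family at target genes. Several targets, among them Axin2, Nkd1, Notum, Rnf43 and Znrf3, feed back on the pathway as inhibitors. Teeth depend on this pathway: mice without Lef1 arrest tooth development early, and variants of human WNT10A cause missing teeth.

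A level below is the normalized log2 signal, which is the log2 of the processed spot intensity minus the 75th percentile of the array. A difference is the gap between such levels averaged over the probes of a gene that were well above background and unsaturated on both arrays, and a gene is counted at a 2-fold gap. The ± after a difference is the SD that the scanner's own error model gives for the spots, which leaves out variation between cultures. The processed signal at the 75th percentile was 216.0 on the siKrt15 array, 180.4 on the siNeg array and 191.1 on the mock array, and between 67.3% and 69.2% of gene probes were well above background. All arrays shared 1 slide and 1 scan. The titles and the treatment fields of the siKrt15 and siNeg arrays contradict each other, and the groups follow the titles: Krt15 had a processed signal of 267 on the array titled siKrt15, against 1647 on siNeg and 2638 on mock, a difference of −2.88 ± 0.20 from siNeg and −3.48 ± 0.20 from mock. Of 7 markers of dental epithelium and basal keratinocytes, among them Krt5 and Krt14, all 7 were well above background on every array. In siKrt15 cells 0 were past 2-fold against either control. Of all genes, 1.70% were 2-fold higher and 2.0% lower than siNeg, and 2.18% and 1.24% for mock, so that 0 says little. The widest gaps were those of Epcam, at 0.53 from siNeg and 0.60 from mock, and Trp63, at −0.32 and −0.56.

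Of the 51 genes, 38 were well above background on all 3 arrays, 4 on some arrays and 9 on none. The 9 were Dkk2, Dkk3, Sfrp2, Sfrp4, Wif1, Wnt2, Wnt2b, Wnt3 and Wnt16. All 12 receptors, all 5 effectors and all 5 membrane or intracellular inhibitors were measured on every array, as were 13 of 19 ligands. Secreted antagonists had the lowest share, with 3 of 10 measured on every array. Of all 24811 named genes, 16915 were measured in siKrt15 against both controls. The 38 of 51 Wnt genes and the 13 of 19 ligands lie near that share.

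Krt15 knockdown went with higher signals of the nuclear effectors Lef1 and Tcf7 and of the receptors Fzd7, Fzd2 and Fzd1, while most other Wnt genes differed from the controls by less than 1.5-fold. Against siNeg, 2 of the 38 measured genes, Lef1 and Tcf7, passed 2-fold upward in siKrt15 cells, and 0 passed it downward. That is 5.26% of the measured Wnt genes, beside 1.70% of all 17120 genes measured, and 0 beside 2.0% for genes 2-fold lower. Against mock, 3 of 38 were at least 2-fold higher, Lef1, Tcf7 and Fzd7, which is 7.89% beside 2.18% of all 17129 genes, and 0 were 2-fold lower beside 1.24%. At 1.5-fold, 5 of 38 were higher than siNeg (13.2%, beside 4.80% of all genes) and 1 was lower (2.63%, beside 8.63%). The same 5 genes were 1.5-fold higher than mock (13.2%, beside 5.83%) and 0 were lower, beside 7.69%. A gene not well above background in siKrt15 cells is not among the 38, so the downward counts leave such genes out. Among these, Wnt10b was at least 2.25-fold below siNeg and Wnt9b at least 2.0-fold below mock, both at low signal. The counts rest on few genes and share the siKrt15 array, so they describe these arrays only.

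The middle of the group moved little. The median difference over the 38 genes was 0.09 from siNeg and 0.16 from mock, beside −0.08 and −0.06 over all measured genes. Single genes spanned −0.60 to 1.26 against siNeg and −0.52 to 1.60 against mock. The siKrt15 array was above both controls for 20 of the 38 genes (52.6%, beside 32.6% of all genes) and below both for 12 (31.6%, beside 51.0%), with the other 6 in between. Both controls were passed by 2 genes at 2-fold higher (1.49% of all genes) and 0 at 2-fold lower (0.662%), and by 5 at 1.5-fold higher (4.0%) and 0 at 1.5-fold lower (4.53%). Between the controls the Wnt genes differed less: siNeg minus mock had a median of 0.06 over 39 genes, a range of −0.21 to 0.73 and no gene at 2-fold, where 0.356% of all genes were 2-fold higher and 0.0459% lower. At 1.5-fold, 2 Wnt genes were higher in siNeg than in mock, Wnt8b by 0.73 and Wnt10b by 0.62, beside 2.42% of all genes, and 0 were lower, beside 0.856%. The SD over genes of the siNeg minus mock difference was 0.19, whereas it was 0.43 for siKrt15 minus siNeg and 0.46 for siKrt15 minus mock. Over all measured genes these SDs were 0.23, 0.42 and 0.43, so the wider spread with siKrt15 was not particular to the Wnt genes. Because these are bulk RNA samples, a lower signal from fewer expressing cells and from less RNA per cell cannot be told apart, and the same holds for a higher one.

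**Figure D1:**
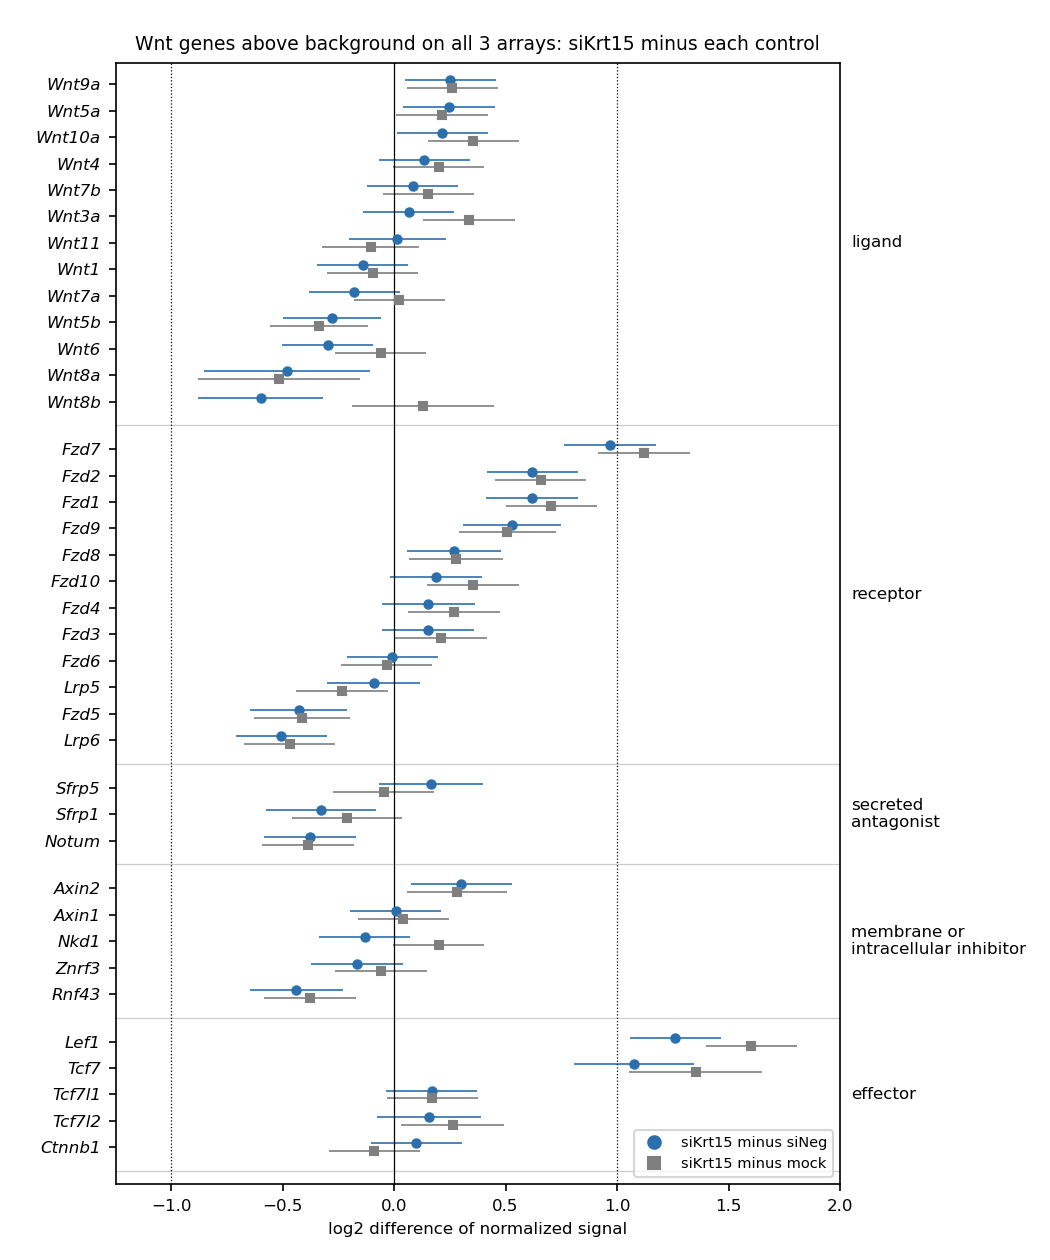
Log2 difference of normalized signal for the 38 Wnt genes above background on all 3 arrays, grouped by role, siKrt15 minus siNeg (circles) and siKrt15 minus mock (squares). Bars are the scanner error-model SD and dotted lines mark 2-fold; Lef1, Tcf7 and Fzd7 stand farthest right, while Lrp6, Fzd5 and Wnt8a lie left of 0 in both comparisons.

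Among the ligands, Wnt10a, Wnt4, Wnt7b and Wnt7a gave strong signals on every array, although signals of different probes are not a ranking of RNA levels. Wnt10a is the ligand tied to tooth number in humans. Its processed signal was 7460 in siKrt15 cells, against 5366 in siNeg and 5159 in mock, and its normalized levels were 5.11, 4.89 and 4.76 in that order. The siKrt15 level was the highest of the 3, by 0.22 over siNeg and 0.35 over mock, each under 1.5-fold. Wnt4, a ligand of developing epithelia, had levels of 4.40 in siKrt15, 4.26 in siNeg and 4.20 in mock. Wnt7b had levels of 3.77, 3.68 and 3.61 on the same arrays, and Wnt7a had 3.49, 3.67 and 3.46. Wnt7b was highest in siKrt15 cells by 0.08 and 0.15, whereas Wnt7a was −0.18 from siNeg and 0.02 from mock, so the bright ligands stayed within about 1 error-model SD of their controls except for Wnt10a.

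The other ligands split around 0. Wnt9a had processed signals of 1097 in siKrt15, against 768 in siNeg and 810 in mock, with differences of 0.25 and 0.26. Wnt5a, a ligand best known for signalling that bypasses beta-catenin, differed by 0.25 from siNeg and 0.22 from mock, and its close relative Wnt5b by −0.28 and −0.34. Wnt3a, a classical activator of beta-catenin signalling, differed by 0.07 from siNeg and 0.34 from mock. Wnt1, Wnt6 and Wnt11 lay between −0.30 and 0.01 against both controls. Over the 13 measured ligands the median difference was 0.01 from siNeg and 0.13 from mock. None reached 2-fold, beside 1.70% of all genes higher and 2.0% lower than siNeg, and 2.18% and 1.24% for mock.

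Dim ligands carried the largest gaps among ligands, and these were the least secure. Wnt8b had processed signals of 9.27 in siKrt15 cells, 11.7 in siNeg and 7.50 in mock. It was −0.60 ± 0.28 from siNeg and 0.13 ± 0.32 from mock, and siNeg stood 0.73 above mock, so the array that stood apart for Wnt8b was siNeg. Wnt8a differed by −0.48 ± 0.37 from siNeg and −0.52 ± 0.36 from mock, with an SD wide beside the gap. Wnt10b had signals of 4.17 in siKrt15, where it was not well above background, 8.46 in siNeg and 5.82 in mock. Its siKrt15 signal was therefore at least 2.25-fold below siNeg and at least 1.46-fold below mock, where such a bound sets the bright array's value against the higher of the dim value and the lowest signal well above background. Wnt9b was well above background in mock only, with signals of 4.65 in siKrt15, 4.41 in siNeg and 8.23 in mock, which puts siKrt15 at least 2.0-fold below mock. The siNeg array, at least 1.73-fold below mock, did the same, so for Wnt9b it was mock that stood apart.

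Among the receptors, 8 of the 12 were higher in siKrt15 cells than in both controls, beside 32.6% of all genes. Fzd7, a Frizzled receptor of stem and progenitor cells in several epithelia, had processed signals of 119.9 in siKrt15, 51.2 in siNeg and 48.7 in mock. Its levels were −0.85, −1.82 and −1.97, a difference of 0.97 ± 0.21 from siNeg (1.96-fold) and 1.12 ± 0.21 from mock (2.18-fold), with 0.15 between the controls. Only siKrt15 stood apart, and the gap from either control was over 4 times the error-model SD.

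Fzd2 and Fzd1 followed the same order of arrays. Fzd2 had signals of 581 in siKrt15, 315 in siNeg and 326 in mock, and levels of 1.43, 0.81 and 0.77, so that siKrt15 was 0.62 above siNeg (1.54-fold) and 0.66 above mock (1.58-fold). Fzd1 had levels of 0.02 in siKrt15, −0.60 in siNeg and −0.69 in mock, 0.62 ± 0.20 above siNeg and 0.71 ± 0.20 above mock. The controls differed by 0.04 for Fzd2 and 0.09 for Fzd1. Fzd1, Fzd2 and Fzd7 form a closely related subgroup of Frizzled proteins, and each was read by 1 probe, at chr5:4754003-4754062 for Fzd1, chr11:102467613-102467672 for Fzd2 and chr1:59543192-59543251 for Fzd7 in build mm9. Whether those probes lie in exons or UTRs was not determined here, since no annotation of that build was used.

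The other receptors differed less or were lower. Fzd9 had signals of 36.9 in siKrt15, 21.3 in siNeg and 22.9 in mock, 0.53 and 0.51 above its controls. Fzd8, Fzd10, Fzd4 and Fzd3 were between 0.15 and 0.36 above both controls, and Fzd6 was within 0.03 of them. Fzd5 differed by −0.43 from siNeg and −0.42 from mock, although its 2 probes gave −0.70 and −0.15 against siNeg. Lrp6, the co-receptor that carries the ligand signal to Axin, had levels of 0.67 in siKrt15, 1.18 in siNeg and 1.14 in mock, a difference of −0.51 and −0.47 that had the same sign at both of its probes. The related Lrp5 differed by −0.09 and −0.23. The receptor median was 0.17 against siNeg and 0.27 against mock, and 3 of 12 receptors (25%) were at least 1.5-fold higher in each comparison, beside the 4.80% and 5.83% of all genes given above.

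Of the secreted antagonists, the 3 that could be measured gave no 1.5-fold difference. Notum, an enzyme that removes the lipid Wnt proteins need for receptor binding, had levels of 0.59 in siKrt15, 0.97 in siNeg and 0.98 in mock, and differed by −0.38 and −0.39. Sfrp1, which binds Wnt proteins outside the cell, had processed signals of 15.0, 15.7 and 15.3 on the same arrays and, after scaling, differences of −0.33 and −0.21. Sfrp5 differed by 0.17 from siNeg and −0.05 from mock. The Lrp-binding inhibitor Dkk1 was well above background in siNeg only, with signals of 4.15 in siKrt15, 4.94 in siNeg and 0.95 in mock, so siKrt15 was at least 1.31-fold below siNeg. Dkk4, seen in mock only, had a siKrt15 signal at least 1.33-fold below mock. Both lay at the detection limit of the array.

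The inhibitors at the membrane and inside the cell were all within 1.5-fold of their controls. Axin2, the most widely used reporter of beta-catenin activity, had processed signals of 26.6 in siKrt15, 18.0 in siNeg and 19.3 in mock, and levels of −3.02, −3.33 and −3.31. The siKrt15 level was the highest, by 0.30 ± 0.23 and 0.28 ± 0.22, which is little more than 1 error-model SD, and with normexp background correction the difference was −0.07 from siNeg and −0.01 from mock. A second Axin2 probe was not well above background on any array. Axin1, the scaffold that is not a feedback target, had levels of 2.57, 2.56 and 2.52 and differed by 0.01 and 0.04. Rnf43, a ubiquitin ligase that removes Frizzled proteins from the membrane, differed by −0.44 and −0.38. Its relative Znrf3 differed by −0.17 and −0.06, and Nkd1, which binds Dishevelled, by −0.13 and 0.20. The gaps of Znrf3 and Nkd1 were within 1 error-model SD of 0. These feedback inhibitors and Notum, at −0.38 and −0.39, were below siNeg, where Axin2 was above it. Against mock, Nkd1 and Axin2 were above and the others below.

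Among the 38 genes measured on all arrays, the effectors Lef1 and Tcf7 had the largest differences. Lef1 had processed signals of 474 in siKrt15 cells, against 165 in siNeg and 138 in mock, at its probe for transcript NM_010703 (chr3:130926200-130926259, mm9). Its levels were 1.13, −0.13 and −0.47, a difference of 1.26 ± 0.20 from siNeg (2.40-fold) and 1.60 ± 0.20 from mock (3.04-fold), against 0.34 between the controls. The siKrt15 array stood above both controls by several error-model SDs. Another 2 Lef1 probes, for other Ensembl transcripts, were not well above background on any array, and with no filter on dim probes their average with the bright probe put Lef1 at −0.125 against siNeg and 0.27 against mock.

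Tcf7, which encodes the factor TCF1, was read at low signal. A probe for NM_009331 (chr11:52066114-52066173, mm9) had signals of 23.3 in siKrt15, 9.02 in siNeg and 10.9 in mock. A neighbouring probe had 22.1 in siKrt15, 8.96 in siNeg and 5.65 in mock. Both of these probes placed siKrt15 highest, but they disagreed on the order of the controls, and their differences from mock were 0.91 and 1.79. Averaged over them, Tcf7 was 1.08 ± 0.27 above siNeg (2.11-fold) and 1.35 ± 0.30 above mock (2.55-fold). Another probe for NM_009331 had signals of 1.83, 1.54 and 1.84 in siKrt15, siNeg and mock, not well above background on any array. With no filter on dim probes, Tcf7 was 0.71 above siNeg and 0.84 above mock, under 2-fold in both comparisons. With normexp background correction, which adds an offset of 50 to every signal and so flattens signals this low, Tcf7 differed by 0.08 from siNeg and 0.17 from mock.

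The remaining effectors did not follow Lef1 and Tcf7. Tcf7l1, a family member that mostly represses, differed by 0.17 from both controls, and Tcf7l2 by 0.16 from siNeg and 0.26 from mock, with its 4 probes spread from −0.28 to 0.47 against siNeg. Ctnnb1, the gene of beta-catenin itself, had levels of 1.26 in siKrt15, 1.16 in siNeg and 1.35 in mock, so siKrt15 lay between its controls. Beta-catenin is regulated mainly at the protein level, which these arrays do not measure.

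**Figure D2:**
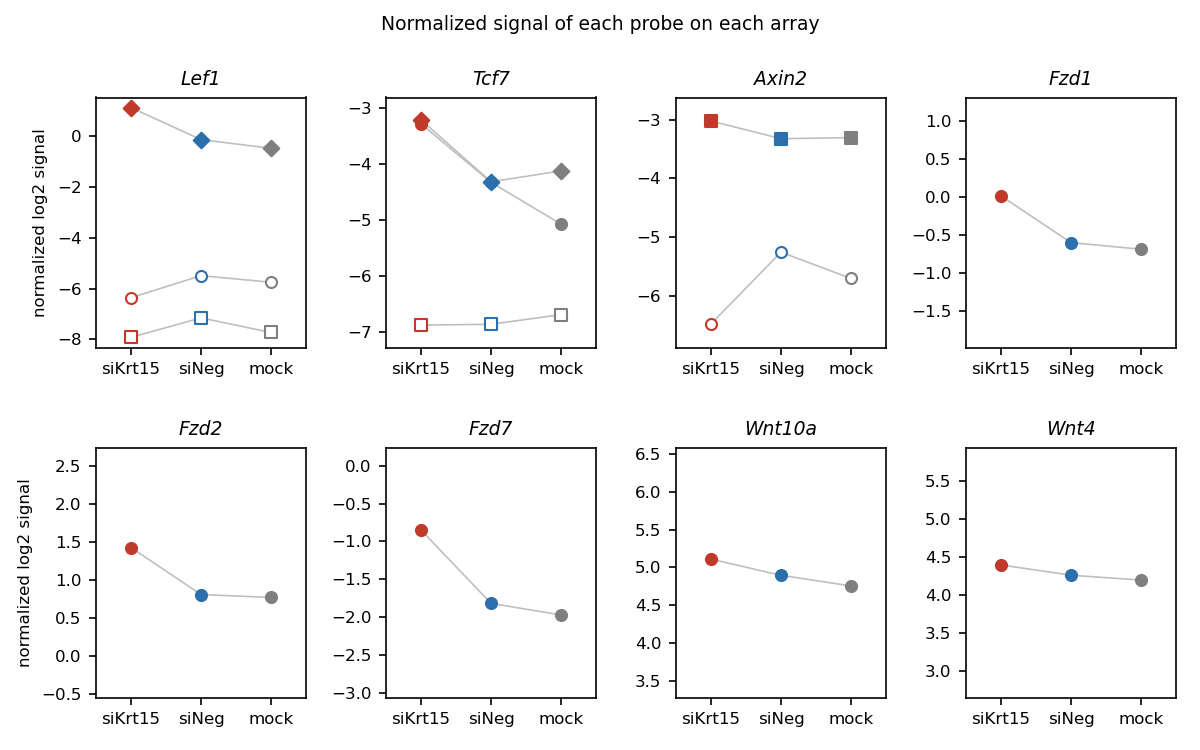
Normalized log2 signal of each probe on the siKrt15, siNeg and mock arrays for 8 Wnt genes, with each probe's points joined; filled points are well above background and open points are not. Each panel has its own vertical range; the bright Lef1 probe and the single Fzd1, Fzd2 and Fzd7 probes are highest on the siKrt15 array, while the open Lef1 and Axin2 probes are lowest there.

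The promoters of the Wnt genes were read for CTTTGA, 1 form of the core Tcf and Lef recognition sequence. Both strands were read in the 250 bases before each RefSeq start (GRCm38.p6), and other forms were not searched. Windows were found for 34 of the 51 genes, and 5 of their 44 windows (11.4%) held the sequence, beside 4544 of 32851 windows of all genes (13.8%). Of the Lef1 windows 1 of 4 held it, of the Tcf7 windows 0 of 2 and of the Axin2 windows 0 of 1. A pair of Lef1 starts and the starts of Fzd1 and Fzd7 are printed 5′ to 3′ on the gene's strand, since these 3 genes were among the 5 past 1.5-fold and their windows differ in matches. The capitals mark the match, which reads TCAAAG where it lies on the opposite strand.
Lef1, upstream start, chr3:131110047-131110296, plus strand: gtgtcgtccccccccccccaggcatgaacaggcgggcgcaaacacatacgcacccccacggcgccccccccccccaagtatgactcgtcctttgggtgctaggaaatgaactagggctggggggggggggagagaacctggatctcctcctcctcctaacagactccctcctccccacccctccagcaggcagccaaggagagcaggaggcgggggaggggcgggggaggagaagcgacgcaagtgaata
Lef1, internal start, chr3:131156044-131156293, plus strand: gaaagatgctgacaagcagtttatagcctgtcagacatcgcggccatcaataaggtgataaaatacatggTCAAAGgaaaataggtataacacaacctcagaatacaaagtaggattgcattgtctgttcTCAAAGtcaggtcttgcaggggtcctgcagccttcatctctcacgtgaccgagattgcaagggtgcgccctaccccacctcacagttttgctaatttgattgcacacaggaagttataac
Fzd1, chr5:4758217-4758466, minus strand: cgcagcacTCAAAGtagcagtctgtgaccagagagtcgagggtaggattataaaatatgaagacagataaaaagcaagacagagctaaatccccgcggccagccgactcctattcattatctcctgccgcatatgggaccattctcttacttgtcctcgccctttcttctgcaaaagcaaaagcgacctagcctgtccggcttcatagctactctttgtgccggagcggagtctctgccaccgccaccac
Fzd7, chr1:59481897-59482146, plus strand: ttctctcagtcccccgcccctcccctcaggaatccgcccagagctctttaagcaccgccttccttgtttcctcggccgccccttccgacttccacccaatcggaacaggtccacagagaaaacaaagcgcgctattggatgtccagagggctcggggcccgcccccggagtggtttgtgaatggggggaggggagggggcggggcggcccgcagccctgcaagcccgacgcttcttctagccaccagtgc
The internal Lef1 start has 2 matches to CTTTGA, 180 and 120 bases before it, and the Fzd1 start has 1, 242 bases before it. The upstream Lef1 and the Fzd7 windows have no match to CTTTGA, but a window without it can still hold another form. The letters describe the windows only, since occupancy was not measured.

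Pathway genes outside the 51 were taken as lists. Of all genes, 1.70% were at least 2-fold higher than siNeg and 2.0% lower, and for mock these shares were 2.18% and 1.24%. With shares this low, 0 at 2-fold in a short list says little about that list. Of 13 genes for Wnt secretion and R-spondin signalling, 7 were measured and 0 reached 2-fold against either control, with medians of −0.10 from siNeg and 0.00 from mock. Rspo1, a secreted amplifier of Wnt signalling, differed by −0.36 and −0.48, the receptor-like Ptk7 by −0.36 and −0.20, and Porcn, the enzyme that adds the Wnt lipid, by −0.29 and −0.22. Lgr5, a stem cell receptor for R-spondins, was not well above background on any array. Of 17 genes of the destruction complex and Dishevelled all 17 were measured and 0 reached 2-fold, with medians of −0.14 and −0.10. Apc, the scaffold of that complex, had levels of −3.86 in siKrt15, −3.11 in siNeg and −3.21 in mock, a difference of −0.75 and −0.65. The kinase Gsk3b, at −0.54 and −0.61, and the Axin-modifying enzyme Tnks2, at −0.56 and −0.61, also stood below each control.

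Among 12 other genes listed as secreted or surface inhibitors, 5 were measured, with medians of 0.16 from siNeg and 0.17 from mock. Apcdd1, a membrane inhibitor that is itself a Wnt target, had mean processed signals of 113 in siKrt15, 53.8 in siNeg and 42.3 in mock, and was 0.71 above siNeg and 1.24 above mock, the second over 2 of its probes and the first over 3. It was the only gene of that list at 2-fold, and only against mock, beside 2.18% of all genes. Bambi, whose place in an inhibitor list was not tested, differed by 0.44 and 0.57, and Kremen1 by −0.20 from both. Of 21 nuclear cofactors and intracellular inhibitors, 20 were measured and 0 reached 2-fold, beside the low shares of all genes given above. Their medians were −0.07 and 0.01. Pygo1, which couples beta-catenin to chromatin, had signals of 40.4 in siKrt15, 20.9 in siNeg and 18.6 in mock and stood 0.69 and 0.94 above them, Dact2 stood 0.49 and 0.36 above, and the acetyltransferase Crebbp was −0.43 and −0.54 from its controls.

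In the planar cell polarity branch, which acts without beta-catenin, 13 of 15 genes were measured, with medians of 0.04 and 0.10. The 1 gene at 2-fold, against siNeg only, was Prickle2, beside 2.0% of all genes 2-fold lower. It had signals of 9.51 in siKrt15, 16.3 in siNeg and 14.2 in mock and differences of −1.04 and −0.76. Celsr2 differed by −0.48 and −0.43 and Ankrd6 by 0.45 and 0.35. Of 29 genes described as Wnt targets in other tissues, 21 were measured, 2 were at least 2-fold higher than both controls (beside 1.49% of all genes) and 0 were 2-fold lower than either (beside 2.0% for siNeg and 1.24% for mock). The 2 were Sp8, a transcription factor with signals of 41.1 in siKrt15, 11.8 in siNeg and 13.6 in mock (1.54 and 1.42), and Ccn4, a secreted matricellular protein with 364, 150 and 158 on the same arrays (1.02 and 1.03). The other targets with the widest gaps from siNeg were Tnfrsf19, at −0.64 and −0.44, Ascl2, at 0.56 and 0.62, and Fosl1, at 0.38 and 0.15. The median of the 21 targets was 0.20 from siNeg and 0.08 from mock.

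Other gene groups moved with the same array. In a cell division list all 8 genes passed 2-fold upward against each control, beside 1.70% of all genes for siNeg and 2.18% for mock. That list was chosen with earlier results of these data known, so its count describes the chosen genes only. The median of the 8 was 1.97 from siNeg and 2.11 from mock, and Mki67 had processed signals of 501, 105.4 and 98.0 in siKrt15, siNeg and mock. Their part in the Lef1, Tcf7 and Frizzled values was not tested. Lymphocytes also express Lef1 and Tcf7, and their part in these values was not tested. Of 12 lymphocyte markers 11 were measured against siNeg, and 0 were 2-fold higher against either control, beside the same 1.70% and 2.18%. The median of these markers was −0.39 and −0.41, and their unscaled processed signals summed to 780 in siKrt15, against 729 in siNeg and 856 in mock. Of 10 mesenchymal markers 7 were measured, with a median of −0.58 and −0.38 and a summed signal of 284 in siKrt15, 317 in siNeg and 336 in mock. Of the 7, 6 were below siNeg and 5 below mock. The lowest was Dcn, at −1.07 and −1.20, and the only 1 above siNeg was Col1a1, at 0.85 and 0.98. Vim was above background in mock only, and Pdgfrb and Lum were above it on no array. Of 5 endothelial markers 4 were above background on none, with a summed signal of 25.7 in siKrt15, 20.9 in siNeg and 32.2 in mock. For the 7 epithelial markers there was a median of −0.11 from both controls and a summed signal of 216278 in siKrt15, 197091 in siNeg and 196319 in mock. All these sums are of processed signals before array scaling, with dim probes included. The siKrt15 array was the brightest, with a 75th percentile of 216.0 against 180.4 in siNeg and 191.1 in mock. The order of the sums therefore does not give the order after scaling.

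**Figure D3:**
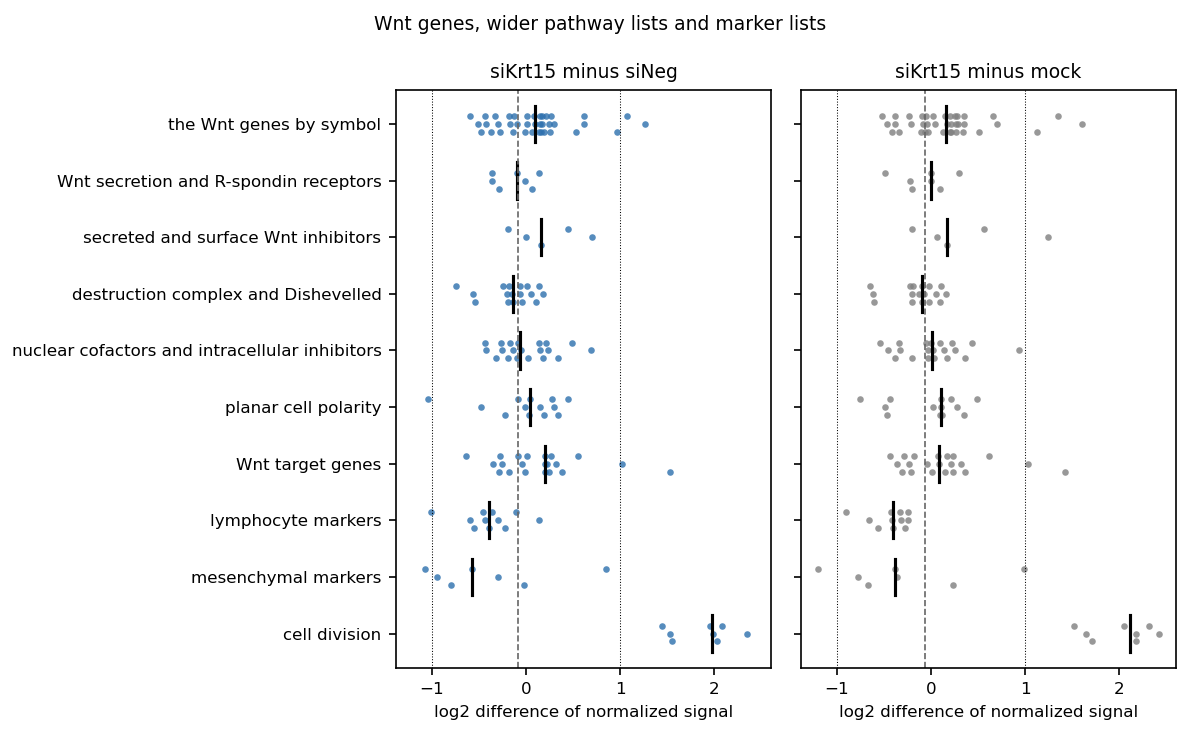
Log2 difference of normalized signal for each measured gene of the Wnt group, the wider pathway lists and the marker lists, siKrt15 minus siNeg (left panel) and siKrt15 minus mock (right panel). Each point is a gene, the black bar is the list's median, the dashed line is the median of all genes and the dotted lines mark 2-fold; the 8 cell division genes lie beyond 2-fold, while the Wnt group centres near 0 with Lef1 and Tcf7 at its right end.

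The members' values depended in part on the processing. Lef1 kept a difference of 1.05 to 1.49 from siNeg and 1.33 to 1.70 from mock over 6 ways of scaling the arrays, Fzd7 kept 0.48 to 1.20 and 0.60 to 1.23, Fzd1 0.47 to 0.85 and 0.56 to 0.80, and Fzd2 0.60 to 0.85 and 0.61 to 0.75. Tcf7 spanned 0.08 to 1.34 and 0.17 to 1.61. Axin2 changed sign over the scalings, from −0.07 to 0.53 against siNeg and −0.01 to 0.51 against mock. Among the receptors above both controls as reported, normexp put Fzd3 at −0.03, Fzd4 at −0.01, Fzd8 at 0.03 and Fzd9 at 0.06 against siNeg. Of the 38 measured genes, 26 had 1 sign against siNeg in all scalings and 28 had 1 sign against mock.

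**Figure D4:**
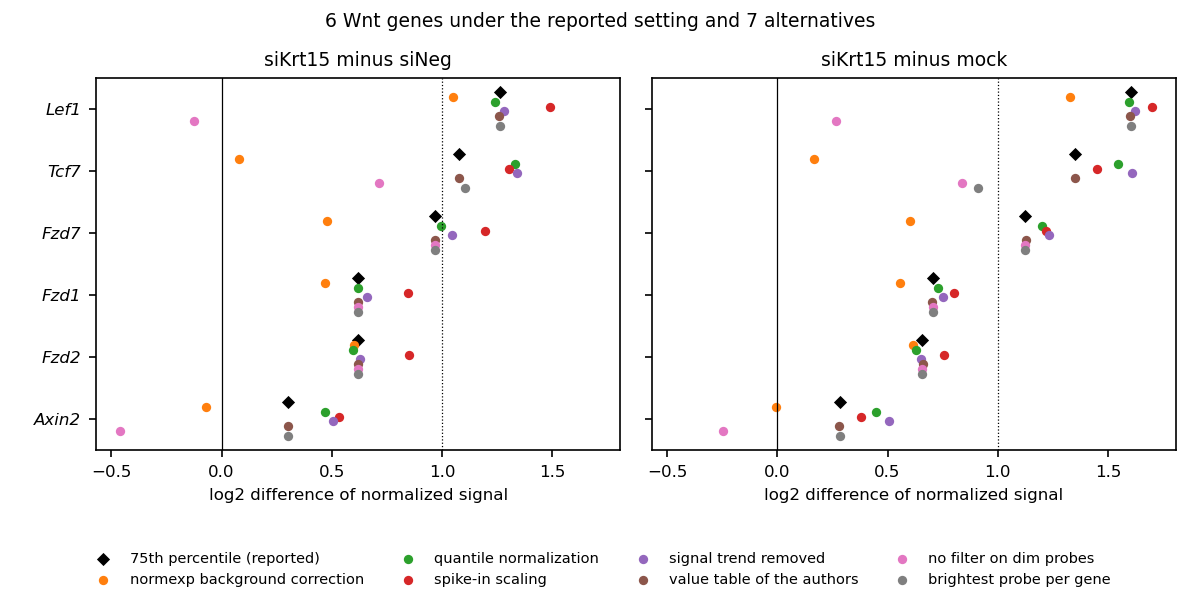
Log2 difference of normalized signal of 6 Wnt genes, siKrt15 minus siNeg (left panel) and siKrt15 minus mock (right panel), under the reported 75th-percentile scaling (diamonds) and 7 alternatives (coloured circles), with a dotted line at 2-fold. Fzd1 and Fzd2 stay to the right of 0.4 throughout, Lef1 is under 2-fold only with no filter on dim probes, and Tcf7 nears 0 only with normexp background correction.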

How the data were processed

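Total RNA of each culture was labelled with Cy3 and read on 1-colour Agilent arrays, 1 array per group. The deposited scanner files give the processed spot intensity, background-corrected by the authors with Agilent Feature Extraction 11.5.1.1, per the submitters' processing notes. The deposited flags give, per the file headers, whether a spot is well above background, saturated or an outlier. The authors' deposited value table holds log2 values that matched these intensities after 1 constant per array (92.4% to 94.0% of probes within 0.01), with no centring of genes and with unstated scaling, so it served as an alternative. The column medians of that table were −3.72 for siKrt15, −3.51 for siNeg and −3.52 for mock.

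Outlier spots were dropped and replicate spots averaged as log2 values, then the 75th percentile over non-control probes was subtracted, with pandas 2.3.3 (Python 3.11.15). No spot was saturated among gene probes. Genes were named through RefSeq accessions (32984 probes), symbols (10228) or synonyms (519). A probe counted as measured when well above background and unsaturated on both arrays compared, and a gene's difference is the mean over such probes. Wnt genes had 1 probe (29 genes) or several (22). Where 15 genes had several measured probes, their differences from siNeg spanned a median of 0.29 and shared 1 sign in 9, and from mock 0.35 and 10. With 1 array per group no test was made, and precision is limited by that number. The counting steps were tested on simulated data. Alternatives used limma 3.58.1 (R 4.3.3) for normexp, and quantile, spike-in and trend-based scaling, other filters and the brightest probe per gene.

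Values were given per array for Lef1, Tcf7 and Axin2, for Wnt genes at 1.5-fold or with a bound of 1.5-fold against either control, and for the 5 brightest. Of each wider list the genes at 2-fold against both controls and up to 3 others with the largest gap from siNeg were named, together with a few markers chosen after their values were seen. The members and lists were chosen with earlier results of these data known.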

Additional observations from a re-analysis of the deposited data

How the results depend on the processing

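Over 8 alternatives, 788 of 868 values for single Wnt genes stayed within their error and 79 moved beyond it. The other 1, Lef1 against siNeg, was past 2-fold as reported and below 0, at −0.125, with no filter on dim probes. Genes under 2-fold changed sign too, among them Axin2, Fzd8 and Wnt5a with no filter and Axin2 and Sfrp5 with normexp. Against siNeg the number of Wnt genes at least 2-fold higher was 2 as reported, 1 with normexp background correction, 0 with no filter, 1 with the stricter filter, 3 with spike-in scaling, 3 with the signal trend removed and 5 at 1.5-fold, and the number lower was 0 as reported, 1 with no filter and 1 at 1.5-fold. The median was 0.09 as reported, 0.32 with spike-in scaling and −0.15 with no filter. Against mock the number higher was 3 as reported, 1 with normexp, 1 with the stricter filter, 2 with no filter, 2 with the brightest probe per gene and 5 at 1.5-fold, the number lower was 1 with no filter, and the median −0.048 with no filter. The 1 gene left with normexp was Lef1 in both comparisons. For siNeg against mock the number higher was 0 as reported, 2 with no filter and 2 at 1.5-fold.

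Over all genes, 46.0% of those at 2-fold between siKrt15 and siNeg were higher, a share that was 78.1% with normexp, 72.6% with quantile scaling, 78.8% with spike-in scaling, 75.9% with the signal trend removed, 77.7% with the stricter filter, 18.7% with no filter and 35.7% at 1.5-fold. Against mock it was 63.7%, and 81.0%, 82.2%, 76.4%, 83.6%, 82.0%, 29.4% and 43.1% in the same order, and for siNeg against mock 88.6% against 64.3% with spike-in scaling. With spike-in scaling the median of all genes against siNeg was 0.15 where it was −0.08 as reported. The Wnt median lay 0.17 above that of all genes against siNeg as reported, 0.082 with normexp, 0.050 with no filter, 0.079 with the stricter filter and 0.073 with the brightest probe.

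No paired analysis was possible because each group has 1 array, leaving out a replicate had no array to drop, and the slide as a block was not run because all arrays share 1 slide and 1 scan. Genes near the lowest signal well above background, 4.49 to 4.56, have little precision, among them Wnt8a, Wnt10b, Wnt9b, Dkk1 and Dkk4. The limit also touches Tcf7, counted as 2-fold higher, since a measured probe of it had a signal of 5.65 in mock.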
